A study of Mus musculus with 6 samples.

Results

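The genes described here encode the enzymes and helpers that work at the DNA replication fork: the primase and replicative polymerases, the clamp loaders, the single-strand binding protein RPA, the flap-removing nucleases, the GINS and CDC45 parts of the helicase, fork protection factors, chromatin assembly factors, the firing kinase and the origin recognition complex. Of 48 genes written for this module by their known roles, 43 had an array row that the platform annotation names for that gene alone, out of 14860 genes measured in that way. The other 5 (Pcna, Rfc2, Atad5, Rpa3 and Lig1) were not analysed here. No member had several rows. Results of these data were known when the list was written, so it cannot be taken as chosen independently of them.

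Expression was measured on 6 Affymetrix arrays, 3 for each of 2 groups of cultured mouse cells. The labels call them aortic endothelial cells from animals of the strain C57/BL6 (5 generations), aged 4 weeks. The genotype label gives Erk1-/-; Erk2fl/fl for every culture, so the controls also lack Erk1 by that label. The group called ERK1/2 null had received a lentivirus with Cre recombinase, written as lentiviral-egfp-Cre for replicate 1 and lentiviral-Cre for replicates 2 and 3. The group called ERK1/2 wild type had received lentiviral-GFP without Cre, so that loss of Erk2 and the presence of Cre cannot be told apart. By these names GFP is given for the controls and null replicate 1 but not for null replicates 2 and 3. The labels do not give the promoter that drives Cre or say whether cultures came from separate animals. ERK1 and ERK2 are kinases that carry growth factor signals to the nucleus, and all cultures grew in medium with 20% serum, heparin and endothelial growth supplement.

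At a fork, the CMG helicase (CDC45, the MCM ring and GINS) unwinds DNA, RPA coats the single strands, and polymerase alpha-primase lays down primers that polymerase epsilon extends on the leading strand and polymerase delta on the lagging strand. Replication factor C loads the PCNA clamp that holds the polymerases, FEN1 and DNA2 trim the ends of Okazaki fragments, and CAF-1 places new histones behind the fork. Transcription of many of these genes peaks as cells enter S phase and is controlled by E2F factors, so their RNA is abundant in dividing cultures and scarce in quiescent ones.

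Array medians over all rows lay between 6.09 and 6.27 on the log2 scale. Null and wild type arrays lay apart on the main axis of a principal component analysis, which held 50.9% of the variance, and the next axis (25.5%) set both arrays numbered 1 apart from those numbered 2 and 3. The defining endothelial markers Pecam1, Cdh5, Tek, Kdr and Emcn all had a mean level among the dimmest 4953 of the 14860 genes (under 4.62), as had 11 of 15 endothelial markers. Eng, Flt1, Egfl7 and Erg lay above that bound. Their means were 9.73, 7.61, 5.79 and 5.61 in null and 9.28, 6.80, 6.04 and 4.63 in wild type. The mean log2 level over these 15 markers was 4.45 to 4.59 on null arrays and 4.33 to 4.56 on wild type arrays, and 0 of them passed the test (Flt1 and Erg rose with the replicate block described below, limma adjusted p = 0.016 and 0.034). Of 9 fibroblast markers 3 rose in null (Col1a2, Col3a1 and Mfap5) and 6 did not pass, among them Pdgfra with a difference of −0.34. With the block 6 rose. Among all genes tested 5.35% were called higher, and 8.92% with the block. The mean level of the fibroblast markers was 8.28 to 10.35 on null arrays and 7.25 to 8.71 on wild type arrays, which overlap. Within replicate numbers 7 of them were higher in null in all 3 comparisons, as were 4208 of the 14860 genes. Their median difference was 1.06. Dcn and Lum, which did not pass, had differences of 4.07 and 2.87 (limma adjusted p = 0.21 and 0.24, blocked 0.026 and 0.037). The 8 smooth muscle markers stood at 6.66 to 7.0 in null and 6.12 to 6.62 in wild type, which do not overlap. Of these 0 were called (3 higher with the block). The 5 leukocyte markers stood at 3.69 to 3.86 and 3.74 to 3.80, with 0 called. Among the dimmest genes lay 2 of the 9 fibroblast, 3 of the 8 smooth muscle and 4 of the 5 leukocyte markers. Col1a1 and Acta2 had means of 12.54 and 12.58 in null and of 11.48 and 11.40 in wild type. The endothelial name thus rests on the labels, and the identity of the cells was not tested. The part of these markers in the fork gene result was not tested.

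The comparison asks whether RNA of the replication machinery stands at another level in cultures called ERK1/2 null than in those called ERK1/2 wild type. Of the 43 measured members, 40 fell in ERK1/2 null cultures, 0 rose and 3 did not pass (limma, Benjamini-Hochberg adjusted p under 0.05 over all 14860 genes). Among all genes tested 6.12% were called lower and 5.35% higher. The median log2 difference (null minus wild type) of the members was −1.45, ranging from −2.36 for Clspn to 0.05 for Orc3, beside a median of 0.02 over all genes. The difference reached 2-fold for 33 members, all of them called, against 2.81% of all genes that were called lower by 2-fold or more. All 3 null arrays lay below all 3 wild type arrays for 41 members, which held for 14.6% of all genes in that direction. In bulk RNA a smaller share of cells in S phase and less RNA per such cell cannot be told apart.

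**Figure D1:**
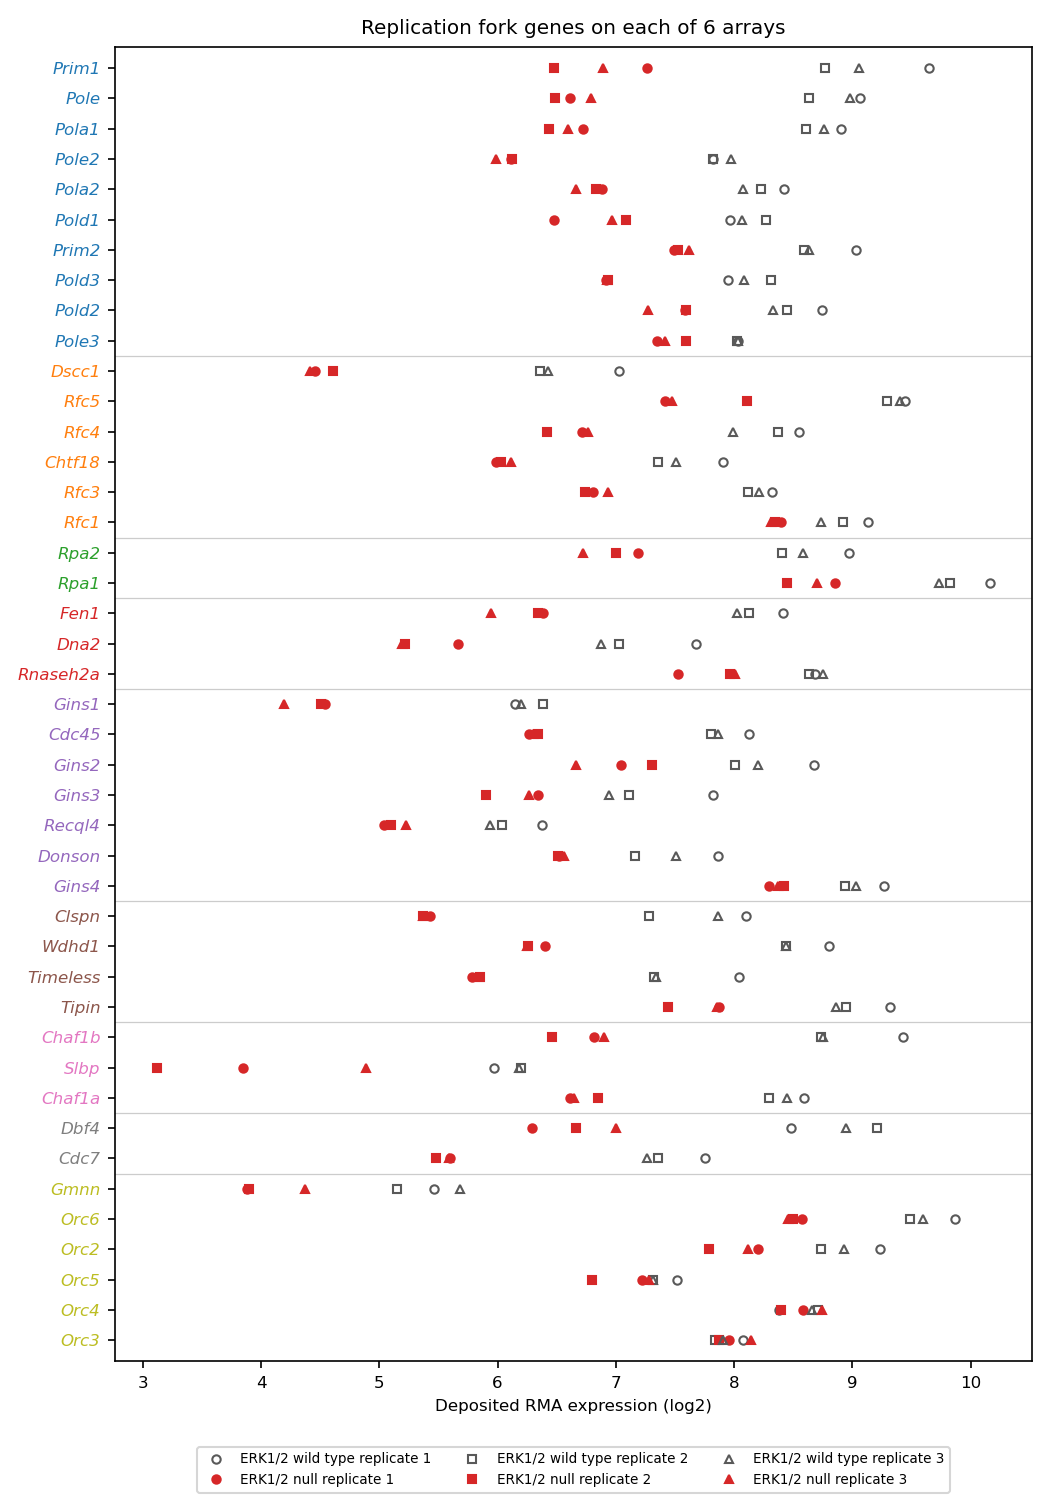
Deposited RMA expression (log2) of the 43 measured fork genes on each array, filled red symbols for ERK1/2 null and open grey symbols for ERK1/2 wild type, with circle, square and triangle for replicates 1, 2 and 3. Gene names are coloured by role; the red and grey symbols stand apart for 41 genes and overlap for Orc3 and Orc4.

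The 6 arrays gave member medians of 6.72, 6.66 and 6.77 for null replicates 1, 2 and 3, and of 8.42, 8.27 and 8.08 for wild type. The groups were therefore separated by more than their own spread. Wild type replicate 1 was the highest of its group for 33 of the 43 members (76.7%), against 32.8% of all genes, whereas no null array was the highest for more than 16. Wild type values also scattered more than null values for 32 members (74.4%, against 53.6% of all genes). Differences within a replicate number were examined too. Over the members alone, deviations from the group means had an r of 0.60 and 0.304 between arrays numbered 1 and 3 but of 0.046 for number 2, so that the pairing seen over all genes was not seen for number 2.

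Within replicate numbers, 41 of 43 members were lower in null in all 3 comparisons (23.3% of all genes were). The median difference was −1.61, −1.38 and −1.32 for numbers 1, 2 and 3. Number 1 gave the most negative difference for 31 members (72.1%, against 39.1% of all genes). With the replicate number as a block in the model 40 members were called lower, with 7.76% of all genes lower and 8.92% higher, and no member changed its call. Without replicate 1 of both groups 30 of the 43 were called and the median was −1.37.

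**Figure D2:**
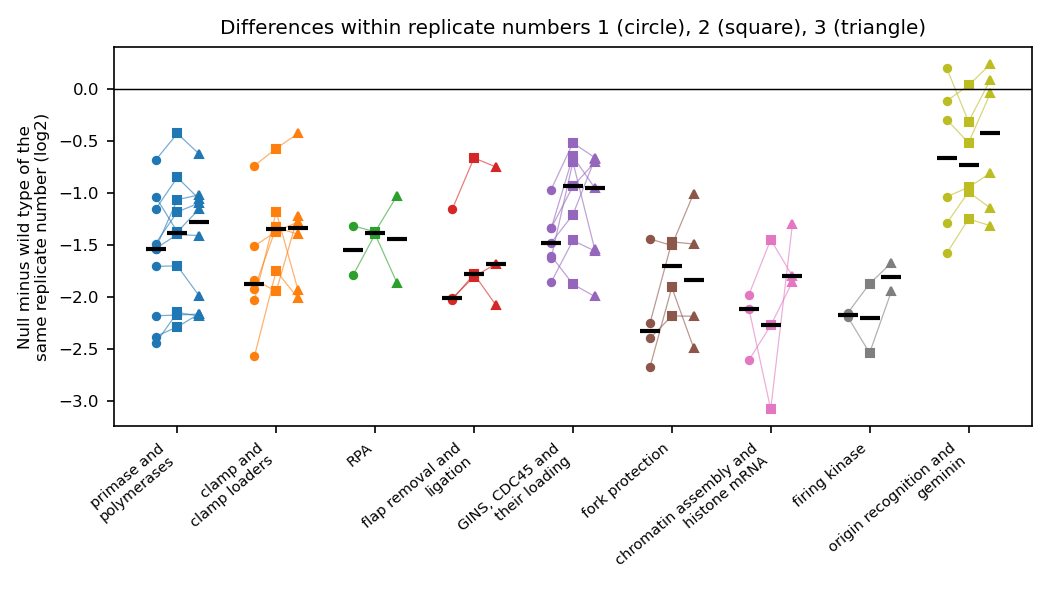
Difference of each fork gene between the ERK1/2 null and wild type arrays that share a replicate number (log2), by role, with circle, square and triangle for numbers 1, 2 and 3 joined per gene and black bars for the median of the role. Every role lies below 0 in each number except origin recognition and geminin, whose medians are −0.67, −0.73 and −0.43 and whose members reach above 0.

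Promoter sequences were compared because the members moved together. The RefSeq table (build GRCm38.p6), which gives 250 bases before and 50 bases after annotated starts, listed 34 of the 43 measured members. Windows were searched on both strands for the E2F core in 8 letters, TTTCCCGC, TTTGGCGC, TTTCGCGC or TTTGCCGC, and in the 7 letters left when the first T is dropped, which every 8-letter match also contains. An 8-letter match was present in 8 of 34 members (23.5%), against 3.8% of 11894 genes tested on the arrays with a listed promoter and 2.3% of all 32851 windows. A 7-letter match was present in 21 (61.8%), against 15.7% of those genes and 9.6% of all windows. These shares describe letters in a window, and binding was not measured.

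The stretches that carry an 8-letter match are shown for all 8 of these members, 5′ to 3′ along the gene, with the match in capitals and positions counted from the annotated start (the first transcribed base is 1). Pola1 carried it at −138 to −131 (chrX:93632230-93632349, minus strand), Gins3 at −41 to −34 (chr8:95633439-95633558, plus strand) and Orc3 also at −41 to −34 (chr4:34614943-34615062, minus strand).
Pola1: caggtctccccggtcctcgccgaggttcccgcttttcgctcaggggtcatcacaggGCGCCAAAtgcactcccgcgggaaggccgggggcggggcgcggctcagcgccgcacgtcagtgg
Gins3: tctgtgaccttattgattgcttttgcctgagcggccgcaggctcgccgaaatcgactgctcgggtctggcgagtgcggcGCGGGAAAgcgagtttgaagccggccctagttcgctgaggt
Orc3: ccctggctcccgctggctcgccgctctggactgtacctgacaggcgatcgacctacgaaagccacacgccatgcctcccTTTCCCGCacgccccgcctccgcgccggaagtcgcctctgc
Rfc3, with a pair of matches that flank the start (chr5:151651195-151651224, minus strand): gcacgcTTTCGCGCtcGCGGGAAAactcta
Clspn, at 22 to 29 (chr4:126556990-126557019, plus strand): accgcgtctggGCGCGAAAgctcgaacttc
Pole2, at 11 to 18 (chr12:69228162-69228191, minus strand): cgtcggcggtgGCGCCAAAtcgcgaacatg
Pold3, at 18 to 25 (chr7:100121467-100121496, minus strand): gagcgaagctgTTTCCCGCcggcgggagct
Pold1, at 40 to 47 (chr7:44548766-44548795, minus strand): cacggcggcgtatcttgtgGCGGGAAAagc

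Of the members called lower that had no 8-letter match, the 5 with the most negative difference among those with a 7-letter match before the start are shown as examples of the shorter core, again in capitals. They do not stand for its usual position: of 31 matches in the measured members, counted once for each listed start, 18 lay wholly before the start and 23 began at or after the 50th base before it. Wdhd1 and Chaf1b each had another match after the start, at 20 to 26 and at 27 to 33, outside the stretches shown. Cdc7 and Fen1 had several listed starts. The Cdc7 site shown is numbered from the downstream one, which had another match at −35 to −29. The same site lies at 14 to 20 from the upstream start of Cdc7. No other Fen1 window held a match to this core.
Prim1, at −15 to −9 (chr10:128015155-128015214, plus strand): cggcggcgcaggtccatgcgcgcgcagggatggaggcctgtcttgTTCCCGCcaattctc
Wdhd1, at −181 to −175 (chr14:47277005-47277064, minus strand): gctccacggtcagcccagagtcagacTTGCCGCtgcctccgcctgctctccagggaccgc
Chaf1b, at −227 to −221 (chr16:93883651-93883710, plus strand): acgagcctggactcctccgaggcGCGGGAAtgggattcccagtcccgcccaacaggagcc
Fen1, at −34 to −28 (chr19:10203922-10203981, minus strand): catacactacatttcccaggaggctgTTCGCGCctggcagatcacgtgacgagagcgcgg
Cdc7, at −226 to −220 (chr5:106964311-106964370, plus strand): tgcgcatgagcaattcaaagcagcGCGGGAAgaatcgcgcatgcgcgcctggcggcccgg

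The 8 measured members with an 8-letter match had a median log2 difference of −1.32 and the 26 without one −1.65. For the 7-letter core the medians were −1.67 with a match (21 members) and −1.45 without (13). Orc3, whose RNA did not pass the test, carried the 8-letter core at the same distance from its start as Gins3, which fell, and Orc4, which did not pass either, carried the 7-letter core. The CCAAT box, bound by NF-Y, was in 17 of the 34 members and 42.4% of the genes tested, the GC box GGGCGG in 70.6% and 56.8%, and the cell cycle homology element (TTTGAA or TTCGAA) in 20.6% and 18.8%.

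**Figure D3:**
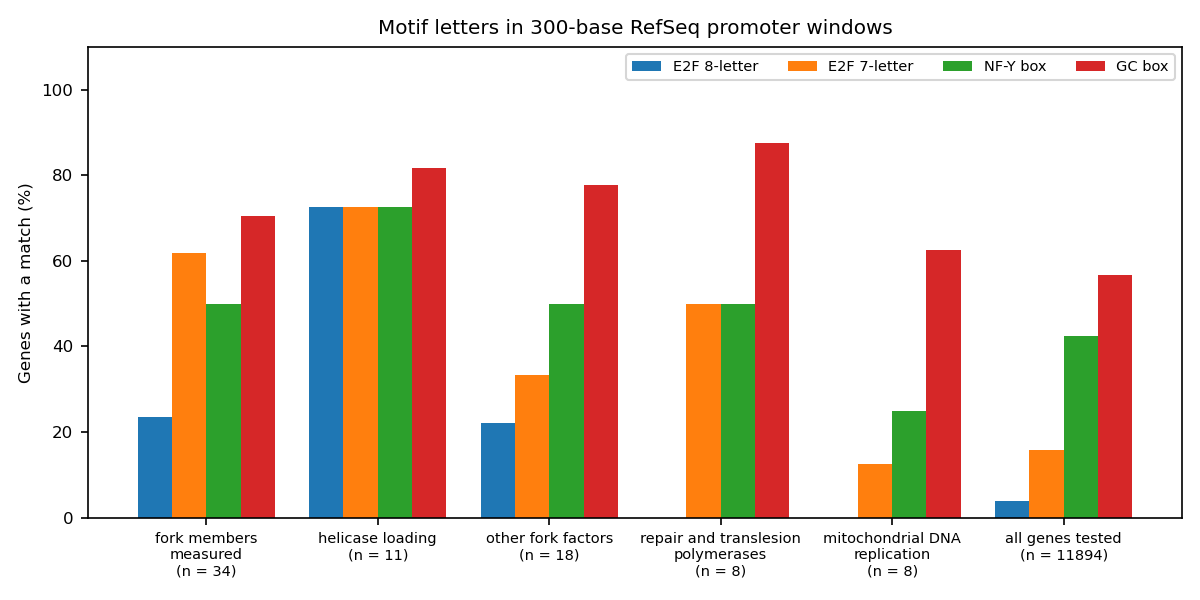
Percentage of genes with at least 1 match in their RefSeq promoter windows, by gene list, for the 8-letter and 7-letter E2F cores, the NF-Y (CCAAT) box and the GC box; n is the number of genes with a listed promoter. The 7-letter E2F core is at 61.8% in the fork members and 15.7% in all genes tested, and the 8-letter core at 72.7% in the helicase loading genes.

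All 10 members that encode primase or polymerase subunits fell, with a median log2 difference of −1.35, 9 of them by 2-fold or more. Pola1, the catalytic subunit of polymerase alpha, stood at 6.72, 6.43 and 6.59 on the null arrays and at 8.90, 8.61 and 8.76 on the wild type arrays. These values do not overlap, and the fall was 4.52-fold (log2 difference −2.18, SE 0.13, limma adjusted p = 0.0014). Prim1, the catalytic primase subunit that makes the RNA primer, read 7.27, 6.48 and 6.89 in null and 9.65, 8.77 and 9.06 in wild type. Replicate 1 was the highest array of both groups for this gene, and the fall was 4.86-fold (−2.28, SE 0.29, limma adjusted p = 0.0066). Pole, the catalytic subunit of the leading strand polymerase, was at 6.62, 6.48 and 6.79 in null and 9.06, 8.64 and 8.98 in wild type, a 4.80-fold fall without overlap (limma adjusted p = 0.0015). Its accessory subunit gene Pole2 fell by 1.80 on the log2 scale (SE 0.11).

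Smaller falls were found for the non-catalytic Pola2 and Prim2 and for the polymerase delta members. Pola2, the regulatory subunit of polymerase alpha, and Prim2, the large primase subunit, had log2 differences of −1.45 (SE 0.13) and −1.21 (SE 0.15). Pold1, the lagging strand catalytic subunit, and its partners Pold2 and Pold3 had differences of −1.26, −1.02 and −1.19, with limma adjusted p of 0.011, 0.012 and 0.0038. Pole3, a histone-fold subunit of polymerase epsilon that also belongs to a chromatin remodelling complex, read 7.35, 7.59 and 7.41 in null and 8.03, 8.02 and 8.04 in wild type. Its groups do not overlap, but the fall was only 1.49-fold (−0.58, SE 0.11, limma adjusted p = 0.023). Pole3 kept its call in 1 of 6 leave-one-out fits (without null replicate 2), and its adjusted p reached 0.081 without null replicate 3.

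Whether subunits of 1 complex changed by unequal amounts was tested for all 38 pairs of measured members within 10 complexes. The log2 difference of each pair was fitted beside all genes. Further measured subunits of polymerase delta (Pold4), polymerase epsilon (Pole4) and the origin recognition complex (Orc1) were on other lists and were not paired. The comparison was added after the values had been seen, and 14 pairs (36.8%) were called. Pairs that share a gene are not separate results, and the share among other gene pairs was not computed. The count was 8, 6 and 4 without null replicate 1, 2 or 3, and 7, 6 and 4 without wild type replicate 1, 2 or 3. Without replicate 1 of both groups 5 pairs were called, Pole with Pole3, Pole2 with Pole3, Pola1 with Prim2, Gins1 with Gins4 and Orc3 with Orc6. Each gene is read by its own array row, and whether these rows respond alike to RNA was not tested, for these pairs or those below. On the arrays, polymerase epsilon had an uneven change. The change of Pole minus the change of Pole3 was −1.68 (95% interval −2.17 to −1.19, limma adjusted p = 0.0056) and that of Pole2 minus Pole3 was −1.22 (−1.58 to −0.86, adjusted p = 0.0060). Both calls were kept in all 6 leave-one-out fits. In polymerase alpha-primase 3 of 6 pairs differed, Pola1 from Pola2 (−0.73, limma adjusted p = 0.043), Pola1 from Prim2 (−0.97, adjusted p = 0.016) and Prim1 from Prim2 (−1.07, adjusted p = 0.044). These 3 calls were kept in 0, 2 and 1 of the 6 fits without an array, with adjusted p up to 0.137, 0.066 and 0.125, and with the replicate block Pola2 differed from Prim1 too (limma adjusted p = 0.11, blocked 0.027). None of the 3 polymerase delta pairs was called, and the interval of Pold1 minus Pold2 ran from −0.90 to 0.44. The unpaired Pold4 was not called (−0.74, limma adjusted p = 0.36, blocked 0.036). The unpaired Pole4 fell by 0.75 (limma adjusted p = 0.021). Both were named after their values were seen.

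**Figure D4:**
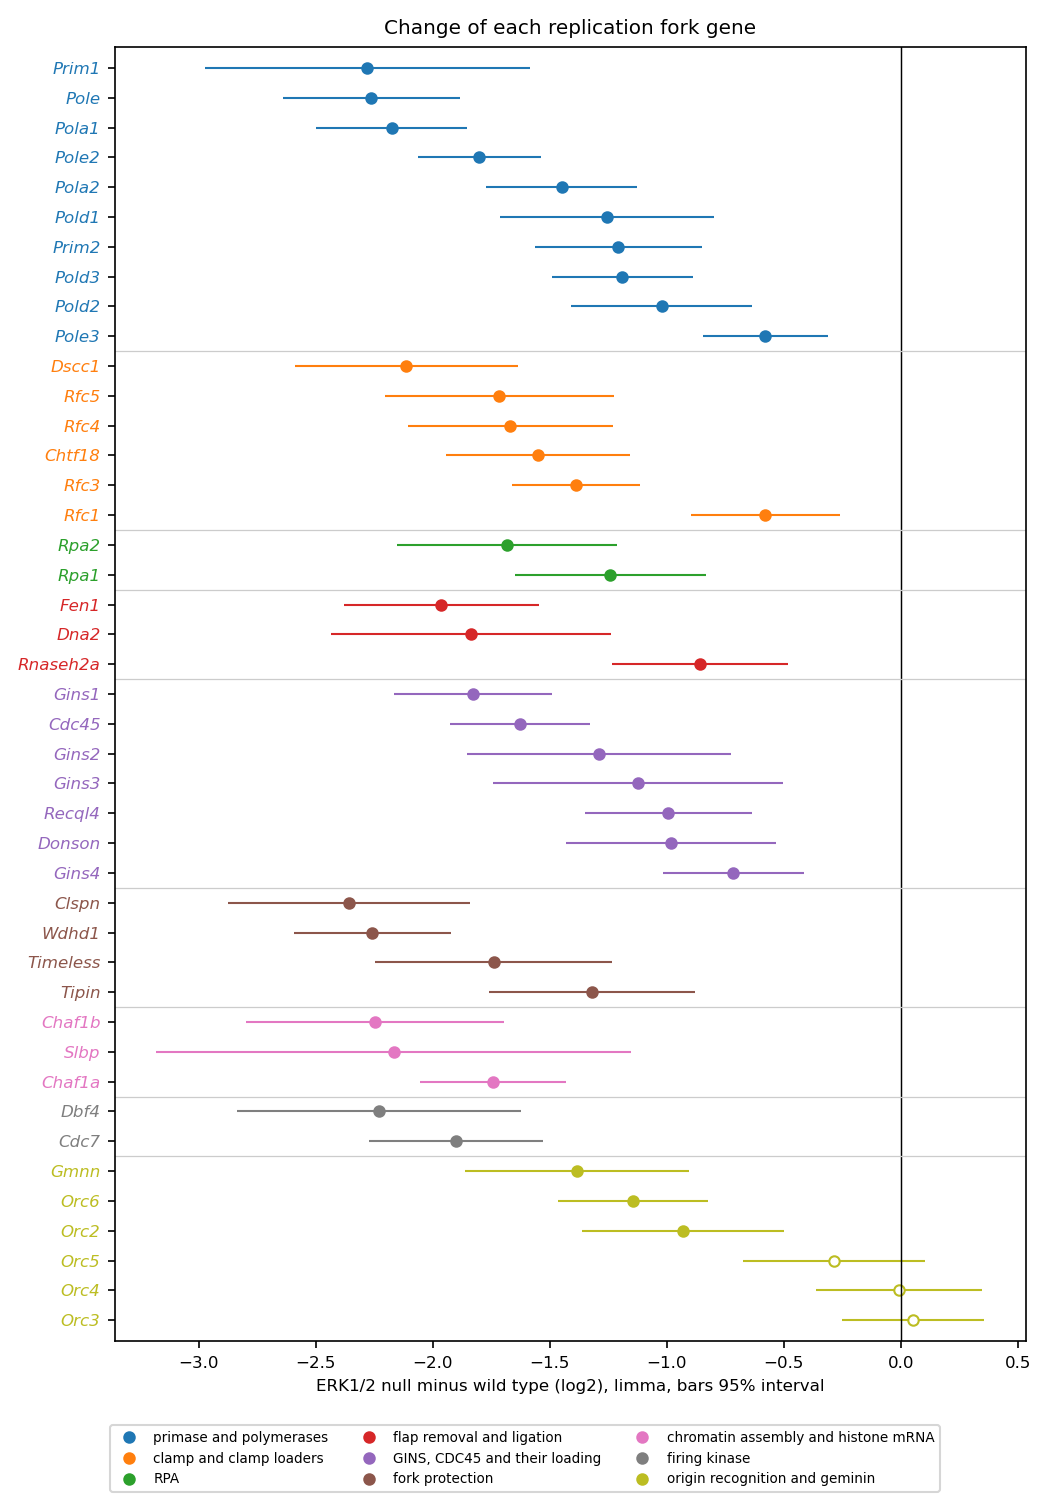
ERK1/2 null minus wild type (log2) for each measured fork gene, ordered within its role, with 95% intervals from limma; filled points passed an adjusted p of 0.05 and open points did not. Clspn is lowest at −2.36, Pole3 and Rfc1 are the least changed members of their roles at −0.58, and the intervals of Orc3, Orc4 and Orc5 include 0.

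The 6 measured clamp loader genes fell, with a median of −1.61. Dscc1, part of the alternative loader that contains CHTF18 and supports sister chromatid cohesion, read 4.45, 4.61 and 4.41 in null and 7.03, 6.36 and 6.43 in wild type. The groups are far apart and wild type replicate 1 is the highest, with a 4.33-fold fall (−2.11, SE 0.20, limma adjusted p = 0.0028). Chtf18 itself fell 2.93-fold. Among subunits of replication factor C, the small subunits Rfc3, Rfc4 and Rfc5 had log2 differences of −1.39, −1.67 and −1.72 (limma adjusted p = 0.0019, 0.0041 and 0.0053). For Rfc5, null replicate 2 stood higher, at 8.11, than null replicates 1 and 3, at 7.42 and 7.47, and still below the wild type values of 9.45, 9.29 and 9.41.

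Rfc1, the large subunit, read 8.39, 8.35 and 8.31 in null and 9.13, 8.92 and 8.74 in wild type, a 1.49-fold fall (−0.58, SE 0.13, limma adjusted p = 0.040). This call was kept only without wild type replicate 3, and the adjusted p reached 0.123 without null replicate 2. The change of Rfc1 minus that of Rfc3, Rfc4 and Rfc5 was 0.81, 1.09 and 1.14 (95% intervals 0.41 to 1.20, 0.68 to 1.49 and 0.56 to 1.71, limma adjusted p = 0.028, 0.012 and 0.031). None of these 3 pairs was called without replicate 1 of both groups. The pair with Rfc4 was called in all 6 fits without an array, that with Rfc3 in 0 (adjusted p up to 0.101) and that with Rfc5 in 1 (up to 0.100). The small subunits did not differ from each other beyond their error, with intervals of −0.18 to 0.74 for Rfc3 minus Rfc4 and −0.72 to 0.82 for Rfc4 minus Rfc5.

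Both measured RPA genes fell. Rpa1, which holds the main DNA-binding domains, read 8.85, 8.45 and 8.70 in null and 10.17, 9.82 and 9.73 in wild type (2.36-fold lower, limma adjusted p = 0.0083). Rpa2, the subunit phosphorylated after replication stress, read 7.18, 7.0 and 6.72 against 8.97, 8.40 and 8.58 (3.21-fold lower, limma adjusted p = 0.0050). Neither gene had overlapping groups, and the difference between their changes was not called (0.44, 95% interval −0.02 to 0.91).

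The flap endonuclease gene Fen1 read 6.39, 6.34 and 5.94 in null and 8.42, 8.13 and 8.02 in wild type, a 3.90-fold fall (−1.96, SE 0.17, limma adjusted p = 0.0023). Dna2, a nuclease and helicase that shortens long flaps, fell 3.57-fold (5.36 ± 0.27 against 7.19 ± 0.43, SD, n = 3 each, limma adjusted p = 0.0081). Rnaseh2a, the catalytic subunit of the ribonuclease that removes RNA paired with DNA, fell by less, 1.81-fold, from 8.69, 8.63 and 8.76 to 7.53, 7.97 and 8.01. Its groups do not overlap, but its limma adjusted p of 0.020 rose to 0.071 without wild type replicate 3, and the call was kept in 2 of 6 fits without an array (without null replicate 1 and without null replicate 3).

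All 7 genes of GINS, CDC45 and their loading fell, with a median of −1.12, and 4 fell by 2-fold or more. Cdc45, the helicase cofactor, read 6.26, 6.34 and 6.30 in null and 8.12, 7.80 and 7.86 in wild type, so that null arrays agreed closely and the fall was 3.09-fold (−1.63, SE 0.12, limma adjusted p = 0.0018). Gins1 read 4.54, 4.51 and 4.20 against 6.15, 6.39 and 6.19, a 3.55-fold fall (limma adjusted p = 0.0018). Gins2 had a difference of −1.29 (SE 0.23, limma adjusted p = 0.019) and Gins3 one of −1.12 (SE 0.26, limma adjusted p = 0.040). Gins4 was at 8.30, 8.42 and 8.37 against 9.27, 8.94 and 9.03, without overlap, a 1.64-fold fall (limma adjusted p = 0.017).

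Within GINS, only Gins1 and Gins4 were called as changing by unequal amounts (Gins1 minus Gins4 −1.11, 95% interval −1.62 to −0.61, limma adjusted p = 0.022). That call was kept in 2 of 6 fits without an array, with an adjusted p of up to 0.076. Recql4, a helicase-like initiation factor, and Donson, which takes part in helicase assembly, fell 1.99-fold and 1.97-fold (limma adjusted p = 0.011 and 0.022). Donson, Gins2, Gins3 and Gins4 lost their call in some fits without an array. Their adjusted p rose to 0.083 (without null replicate 2), 0.063 (without wild type replicate 3), 0.132 (without null replicate 2) and 0.061 (without null replicate 3), and they kept it in 2, 4, 1 and 2 of the 6 fits.

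Fork protection genes fell by a median of 2.00 on the log2 scale, all 4 by 2-fold or more. Clspn, the adaptor that links stalled forks to the kinase CHK1, had the most negative difference of the 43 members. It read 5.42, 5.37 and 5.37 in null and 8.10, 7.28 and 7.86 in wild type, a 5.13-fold fall (−2.36, SE 0.21, limma adjusted p = 0.0025) in which the null arrays lay together and the wild type arrays were spread. Wdhd1, which tethers polymerase alpha to the helicase, read 6.40, 6.26 and 6.25 against 8.80, 8.44 and 8.44 (4.78-fold lower, limma adjusted p = 0.0014). Timeless and Tipin, partners in 1 complex, fell 3.34-fold and 2.50-fold, and their changes were not called as unequal (−0.42, 95% interval −0.90 to 0.06).

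The subunits of the histone chaperone CAF-1 fell together. Chaf1a read 6.61, 6.85 and 6.64 in null and 8.59, 8.30 and 8.44 in wild type (3.35-fold lower, limma adjusted p = 0.0016). Chaf1b read 6.81, 6.46 and 6.90 against 9.42, 8.73 and 8.75 (4.75-fold lower, limma adjusted p = 0.0036). The groups are apart for both genes. Slbp, which binds the stem-loop of histone messenger RNA, was the most scattered member, at 3.85, 3.12 and 4.89 in null and 5.97, 6.20 and 6.18 in wild type. It fell 4.49-fold (−2.17, SE 0.42, limma adjusted p = 0.024), and the call was kept in 2 of 6 fits without an array (without null replicate 2 and without null replicate 3), with an adjusted p of up to 0.085 without wild type replicate 3. Null means of Slbp, Gmnn, Gins1 and Dscc1 (3.95, 4.05, 4.42 and 4.49) lay under 4.62, the bound of those dimmest genes, where RMA compresses differences.

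Both subunits of the kinase that fires origins fell. Cdc7, the catalytic subunit, read 5.60, 5.48 and 5.59 in null and 7.75, 7.36 and 7.27 in wild type (3.74-fold lower, limma adjusted p = 0.0018). Dbf4, its activating subunit, read 6.29, 6.66 and 7.0 against 8.48, 9.21 and 8.95 (4.69-fold lower, limma adjusted p = 0.0046). Neither overlaps, and the interval of Cdc7 minus Dbf4 ran from −0.52 to 1.17.

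The 3 members that were not called all belong to the origin recognition complex, which has 5 measured members. Orc3 read 7.96, 7.88 and 8.14 in null and 8.07, 7.84 and 7.90 in wild type, with overlapping groups and a 95% interval of −0.25 to 0.36 for the log2 difference (limma adjusted p = 0.85). Orc4 read 8.58, 8.40 and 8.74 against 8.38, 8.71 and 8.66, also overlapping (interval −0.36 to 0.35, limma adjusted p = 0.98). For these 2 genes a fall of 2-fold lies outside the interval. Orc5 read 7.22, 6.80 and 7.28 against 7.51, 7.31 and 7.32, with null just below wild type and no call (−0.28, interval −0.67 to 0.10, limma adjusted p = 0.34). A fall of 2-fold lies outside the interval of Orc5 too.

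Orc2 and Orc6 fell. Orc6, a small subunit needed for helicase loading, read 8.57, 8.49 and 8.45 in null and 9.87, 9.48 and 9.60 in wild type (2.21-fold lower, limma adjusted p = 0.0050). Orc2, a core subunit, read 8.20, 7.79 and 8.12 against 9.24, 8.74 and 8.93 (1.91-fold lower, limma adjusted p = 0.023). Orc2 kept its call in 2 of 6 fits without an array (without null replicate 1 and without wild type replicate 2), with an adjusted p of up to 0.077 without null replicate 2. The change of Orc3 minus that of Orc6 was 1.20 (95% interval 0.81 to 1.58, limma adjusted p = 0.0078), and this pair was called in all 6 fits. Orc4 and Orc5 differed from Orc6 as well (1.13 and 0.86, limma adjusted p = 0.029 and 0.034), each in 1 of the 6 fits, with adjusted p of up to 0.094 and 0.100.

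The change of Orc2 minus that of Orc3 was −0.98 (limma adjusted p = 0.015, in 3 of 6 fits without an array, up to 0.065). With Orc5 it was −0.65 (limma adjusted p = 0.047, blocked 0.063, in 0 of 6 fits, up to 0.138), and with Orc4 −0.92 (limma adjusted p = 0.061, blocked 0.033). Geminin (Gmnn), which blocks relicensing by binding CDT1, read 3.88, 3.90 and 4.37 in null and 5.46, 5.15 and 5.68 in wild type, a 2.61-fold fall without overlap (limma adjusted p = 0.0096, and 0.0507 without replicate 1 of both groups).

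Genes around the fork were summarised from lists written by role. All 13 measured helicase loading genes fell, with a median of −2.05, among them Cdc6, Mcm3 and Mcm5 (log2 differences −2.43, −2.19 and −2.19), and Orc1, the cell-cycle-regulated subunit of the origin recognition complex, fell by 1.77 (named after its values were seen). Of 19 other fork and chromatin factors 12 fell and 0 rose (14 fell with the block), with a median of −0.75. Exo1, a nuclease of mismatch repair, Uhrf1, which directs methylation of new DNA, and the histone chaperone gene Asf1b had the most negative differences (−2.50, −2.35 and −2.35).

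Polymerases that work mainly outside the fork were described by their counts, beside 6.12% of all genes called lower (7.76% with the block). Of 11 measured repair and translesion polymerase genes 2 fell, Polq (−2.06, SE 0.13, limma adjusted p = 0.0015) and Polh (−1.37, SE 0.17, limma adjusted p = 0.0064), and with the block Polm did too (limma adjusted p = 0.20, blocked 0.040). Polq encodes the polymerase of end joining at short homologies and Polh a polymerase that bypasses ultraviolet damage. The list median was −0.13. Of 9 mitochondrial DNA replication genes only Polg, the mitochondrial polymerase, fell (−0.68, SE 0.12, limma adjusted p = 0.020), with Twnk, the mitochondrial helicase, added by the block (limma adjusted p = 0.068, blocked 0.048), and the list median was −0.18. The mitochondrial count was 1 in the fit without wild type replicate 1 and 0 in the other 5 leave-one-out fits. No test of 1 list against another was made.

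**Figure D5:**
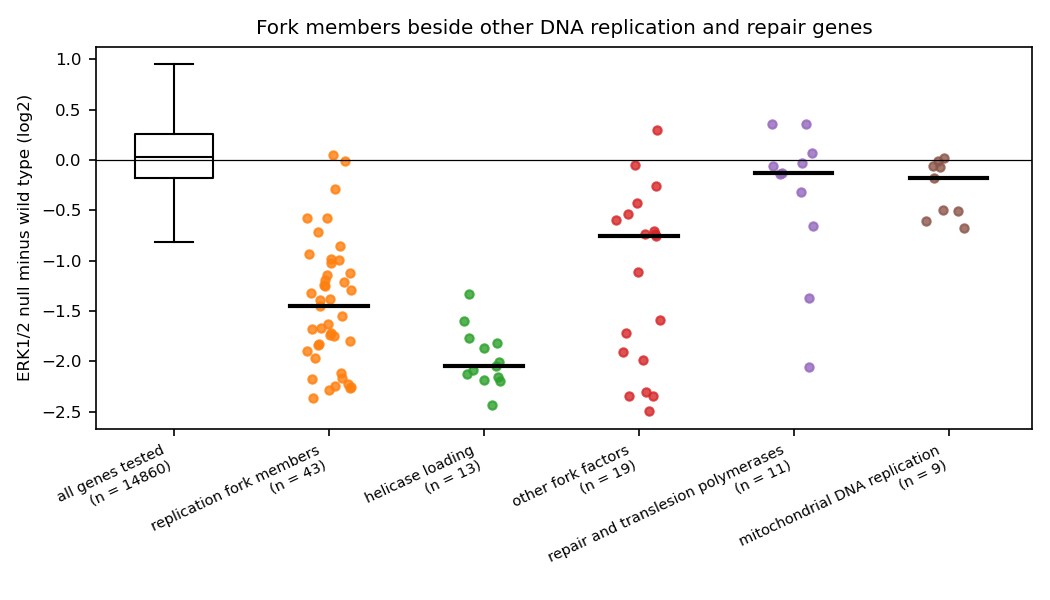
ERK1/2 null minus wild type (log2) for each measured gene of the fork list and of 4 lists of other replication and repair genes, with black bars for list medians; the box shows all 14860 genes (median, quartiles, whiskers at the 5th and 95th percentiles). Medians are −1.45 for the fork members, −2.05 for helicase loading, −0.75 for other fork factors, −0.13 for repair and translesion polymerases and −0.18 for mitochondrial DNA replication.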

How the data were processed

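RNA of the 6 cultures was hybridised as biotin-labelled cRNA to Affymetrix arrays. The authors deposited log2 expression values made with RMA, per the submitters' processing notes, in 1 table of 16775 rows. RMA corrects background, quantile-normalises and combines probes, and it compresses differences between dim signals. The table has no detection p-values, and the number of arrays limits the precision. Rows were named from the platform annotation: 14996 rows had 1 gene, 1019 had several and 760 were not listed, and only the first kind was used. For the 135 genes with several rows the row of highest mean was kept, which gave 14860 genes. The rows of the targeted kinases were not analysed here.

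Groups were compared with limma 3.58.1 (R 4.3.3, lmFit and eBayes, two-sided, 6 arrays, no covariate), with Benjamini-Hochberg adjustment over all genes and calls at an adjusted p under 0.05. In a simulation over 14860 genes, the fit recovered 61 of 100 genes changed by 1 on the log2 scale and 83 of 100 changed by 2, with 5 false calls, so real changes can go uncalled. It changed 200 genes and drew independent noise, with spreads taken from the data and shuffled among genes. Its counts need not hold for these arrays, which differ in both respects. Differences are null minus wild type with 95% intervals. Arrays of the same replicate number deviated together (r of 0.565, 0.347 and 0.453 over all genes), so the number was also used as a block, although the labels do not say what it marks. Replicates are called biological in the labels without saying whether animals differed, so p-values measure the spread between these samples, which may be technical. For subunits, differences of log2 values divided by the square root of 2 were fitted beside all genes. Promoters came from a RefSeq table of GRCm38.p6.

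The members and lists were chosen with earlier results of these data known. All measured members are described, and of each other list up to 3 called genes with the largest difference. Alternatives were the block, quantile normalisation, subtraction of array medians, removal of the 4953 dimmest genes, an intensity trend with robust prior, array weights, the mean of a gene's rows, an adjusted p of 0.01 and leaving out arrays.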

Additional observations from a re-analysis of the deposited data

How the results depend on the processing

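The replicate block left 40 members called lower and changed no member's call. All genes called higher went from 795 to 1326 with the block. At an adjusted p under 0.01 the fit called 28 members, 363 of all genes lower and 182 higher, 3 subunit pairs and 0 mitochondrial genes. Mitochondrial genes called lower were 2 with the block and 3 with quantile normalisation or with array medians subtracted, and 0 to 1 without an array. Without an array, 32 to 35 members were called lower, the members' median was −1.54 to −1.37, all genes called lower were 459 to 727 and higher 271 to 651, and subunit pairs were 4 to 8. Of the 40 called members, 31 kept their call in all 6 of these fits. The comparison of subunits and the fit without replicate 1 of both groups were chosen after seeing the data, and that fit gave 30 members, 556 of all genes lower, 0 mitochondrial genes and 5 pairs. Orc3 turned to −0.03 with array medians subtracted and lay between −0.022 and 0.12 without an array, and Orc4 lay between −0.11 and 0.080 without an array, none of them called. Orc3 changed sign without null replicate 3 and Orc4 without null replicate 2, wild type replicate 2 or wild type replicate 3. The 7-letter E2F core raised the number of members with a match from 8 to 21, since it includes every 8-letter match. Fits without an array have fewer samples, and the cause of the other changes was not tested. Dim rows have compressed differences, so the size of a fall to a dim null level is the least certain.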
